A study of Mus musculus with 2 samples.

Results

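The 7 genes followed here encode the microtubule machinery of new neurons. They are the stathmins Stmn1, Stmn2, Stmn3 and Stmn4, the doublecortin gene Dcx, and the beta-tubulin genes Tubb3 and Tubb2b. They were picked by symbol from 31053 listed genes, and all 7 were found, with 1 row each. Single-cell RNA sequencing had been carried out on dentate gyri dissected from mice at postnatal day 2. One library held cells of hGFAP-Cre;Kdm6bF/F mice (KO library) and 1 held cells of their littermate controls (control library), and each pooled 2 animals. The hGFAP-Cre transgene is active in radial glia and so reaches their neuronal and glial descendants, whereas vessel and blood cells lie outside that lineage. The genotype labels read WT for the control library and Kdm6b KO for the other. Strain, sex and, beyond the WT label, the floxed and Cre alleles carried by the control littermates were not given in the sources used here.

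With 1 library for each genotype no test between genotypes could be made. The animals within a library cannot be told apart by label, so each ratio below compares 2 libraries. Unique molecular identifiers (UMIs, 1 for each captured transcript molecule) were summed over the cells of a class and divided by the class total, giving counts per 1000000 UMIs (CPM). Intervals are 95% exact intervals and cover counting error only, not the spread between animals. A gene was called lower or higher in the KO library when its CPM ratio passed 1.5-fold with at least 20 UMIs over both libraries.

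Stathmins bind free tubulin dimers and promote the shrinkage of microtubules, and phosphorylation switches them off. Stmn1 is cytosolic and is known from dividing cells and from immature neurons, while Stmn2, Stmn3 and Stmn4 carry an additional start region that anchors them to membranes and are largely neuronal. Doublecortin binds and stabilises microtubules in migrating neuroblasts and is the classic marker of immature granule neurons in the dentate gyrus. Tubb3 encodes the tubulin known as TUJ1, a marker of committed neurons, and Tubb2b encodes a tubulin abundant in the developing cortex and in radial glia. In the postnatal dentate gyrus, radial glia-like stem cells give rise to intermediate progenitors, then neuroblasts, then granule neurons.

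The genes lie on 7 chromosomes (build mm10, GRCm38). Stmn1 lies at chr4:134468320-134473843, Stmn2 at chr3:8509360-8561606 and Stmn4 at chr14:66344296-66361680, all on the plus strand. Tubb3 lies at chr8:123411424-123422015 on the plus strand. On the minus strand are Stmn3 at chr2:181306459-181314500, Dcx at chrX:143855842-143933311 and Tubb2b at chr13:34126748-34130466. Stmn2 and Stmn3 were the closest pair of stathmins, with 74.4% identity over the coding sequence, and the most distant pair, Stmn1 and Stmn4, had 53.6%. Tubb2a and Tubb2b, neighbours on chromosome 13, shared 96.5% of their coding bases but 59% of the last 300 bases of the transcript, where reads of this 3′ assay gather. Over those last 300 bases the stathmin pairs shared 55.3% to 60.3%.

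RefSeq promoter entries (build GRCm38.p6) were matched for 3 of the 7 genes, namely Stmn3, Dcx and Tubb3. The bases upstream of the annotated gene start are shown for these because their genes are followed through the same differentiation steps. Capitals mark matches on either strand to CAGATG or CAGCTG (E-boxes of proneural factors), TATAA or CCAAT.
Stmn3, chr2:181314501-181314750, minus strand: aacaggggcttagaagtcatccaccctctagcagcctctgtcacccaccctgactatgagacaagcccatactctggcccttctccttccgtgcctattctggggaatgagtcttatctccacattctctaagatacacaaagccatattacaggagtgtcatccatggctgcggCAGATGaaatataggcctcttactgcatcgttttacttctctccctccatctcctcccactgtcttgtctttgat
Dcx, chrX:143933312-143933469, minus strand: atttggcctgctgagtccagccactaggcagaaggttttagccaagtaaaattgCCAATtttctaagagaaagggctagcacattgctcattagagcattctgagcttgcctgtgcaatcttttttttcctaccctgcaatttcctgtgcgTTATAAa
Tubb3, chr8:123411303-123411423, plus strand: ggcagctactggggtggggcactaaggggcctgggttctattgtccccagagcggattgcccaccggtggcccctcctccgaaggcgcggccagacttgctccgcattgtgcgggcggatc
The Stmn3 stretch of 250 bases held 1 CAGATG, 75 bases upstream of the gene start. The Dcx stretch of 158 bases held 1 CCAAT, 104 bases upstream, and 2 overlapping TATAA matches on opposite strands, 7 and 6 bases upstream. The Tubb3 stretch of 121 bases held no match to these letters, and 67.8% of it was G or C. Over 32851 RefSeq windows of 300 bases, CAGATG was found in 17.2%, CAGCTG in 16.3%, TATAA in 24.9% and CCAAT in 37.4%. These matches are descriptions of sequence and were not linked to any measurement here.

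After filtering, 2957 cells with 31518520 UMIs were kept in the control library and 1931 cells with 25487578 UMIs in the KO library, with medians of 7342 and 9267 UMIs per cell. Clustering left out the 7 genes and the lists of related genes described below, and gave 29 clusters, of which 23 were named in 16 classes and 6 were left unnamed (505 control and 440 KO cells). Radial glia/neural stem cell-like cells (stem cell-like cells from here on) numbered 201 and 163 in the control and KO libraries, dividing cells 169 and 59, intermediate progenitor-like cells 148 and 57, neuroblast-like cells 390 and 131, and excitatory neuron-like cells 636 and 330. The libraries shared 6 barcodes among kept cells. A Y-linked UMI without Xist was seen in 986 control cells (33.3%) and in 0 of 1931 KO cells, which allows a share of up to 0.155%, so sex composition differed between the libraries. Kdm6b itself was at 70.3 CPM in control and 69.8 CPM in KO stem cell-like cells, and at 58.1 and 57.7 CPM over all cells. It was called lower in dividing cells (60 and 7 UMIs, ratio interval 0.107 to 0.607) and excitatory neuron-like cells (476 and 190 UMIs, 0.531 to 0.748). Microglia-like cells were also called lower, with an interval that holds 1. Oligodendrocyte lineage-like cells were called higher (24 and 14 UMIs, 1.10 to 4.64), and endothelial-like cells had an interval of 1.08 to 1.41. The files do not show whether the counted 3′ ends lie in the floxed part, so these levels are no check of the genotype.

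In both libraries the levels of all 7 genes were higher in neuroblast-like than in stem cell-like cells, but they came up at different steps. Tubb3 and Dcx stood near their neuroblast-like level in intermediate progenitor-like cells, and Stmn1, Stmn3 and Tubb2b were also within 1.5-fold of theirs. Only Stmn2 and Stmn4 rose past 1.5-fold between these 2 classes, in both libraries. Stmn2 and Stmn3 stood higher again in excitatory neuron-like cells, and Stmn1 was highest in intermediate progenitor-like and neuroblast-like cells. Because the genes were picked with such levels in view, these values are a description. The class called intermediate progenitor-like also carried the 8 neuroblast markers, at 10118 and 9921 CPM against 9241 and 8145 CPM in neuroblast-like cells. Its own 9 markers were at 3479 and 2352 CPM, against 1888 and 1163 CPM. It may therefore hold early neuroblasts.

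Stmn1, the cytosolic stathmin, was present from the start of the lineage. Its level was 2028 CPM (control) and 1539 CPM (KO) in stem cell-like cells and 4758 and 4599 CPM in dividing cells. It then reached 6229 and 5939 CPM in intermediate progenitor-like cells and 6048 and 5478 CPM in neuroblast-like cells. Those last 2 classes led the order of 16 classes in both libraries, with intervals that overlapped each other. Excitatory neuron-like cells stood lower, at 4401 and 4150 CPM.

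Stmn1 also followed the cell cycle inside the stem cell class. Each cell was thinned to 2000 UMIs, and cells with 3 or more UMIs of cell cycle genes were set against those with fewer. Cycling cells of this class had a mean of 6.43 Stmn1 UMIs (interval 5.81 to 7.11, 60 cells) in the control library and 6.08 (5.17 to 7.10, 26 cells) in the KO library. The others had 2.29 (2.03 to 2.57, 124 cells) and 2.20 (1.94 to 2.48, 121 cells). The intervals of cycling and other cells did not overlap in either library. Tubb2b went the other way, with 1.80 in cycling and 3.60 in other cells of the control library, and 2.23 and 3.17 in the KO library, where the intervals overlapped (1.69 to 2.88 and 2.86 to 3.51). The class joins cluster 12, with more Stmn1 and less Tubb2b, and cluster 11, and the part of that mix in these values was not tested. In unnamed cluster 4, with radial glia and astrocyte markers, cycling and other control cells had 2.74 and 0.564 Stmn1 UMIs but 2.83 and 2.69 of Tubb2b. In endothelial-like cells, which lie outside the neural lineage, Stmn1 was likewise higher in cycling cells (1.89 against 0.786 in the control library).

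Stmn2, which encodes a membrane-anchored stathmin of growth cones, stayed low until the intermediate progenitor stage. It was at 83.4 CPM (control) and 39.1 CPM (KO) in stem cell-like cells, and at 51.7 and 30.3 CPM in dividing cells. Endothelial-like cells, which should lack the transcript, had 53.5 and 30.8 CPM. The control stem cell-like level (interval 65.0 to 105 CPM) lay above the endothelial-like one (46.7 to 60.9 CPM), while the other 3 of these levels overlapped with the endothelial-like one of their library. In UMIs, however, stem cell-like cells held 70 in 201 control and 37 in 163 KO cells. Endothelial-like cells held 223 and 117, in 197 cells of each library. Free RNA in droplets gives such a background in cells that do not express a gene. Intermediate progenitor-like cells had 610 and 257 CPM, neuroblast-like cells 1479 and 1402 CPM, and excitatory neuron-like cells 5211 and 4730 CPM. From neuroblast-like to excitatory neuron-like cells the level was 3.52-fold (control) and 3.37-fold (KO) higher. Granule neuron-like cells stood at 1567 and 1693 CPM. That was 1.06-fold (interval 0.971 to 1.16) and 1.21-fold (1.07 to 1.36) the neuroblast-like level. Granule neuron markers summed to 29.2 and 28.8 CPM in excitatory neuron-like cells, against 2058 and 415 CPM in granule neuron-like cells.

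Stmn3 and Stmn4, the other 2 membrane-anchored stathmins, differed from each other in the step from neuroblast-like to excitatory neuron-like cells. It was 3.46-fold (control) and 2.72-fold (KO) for Stmn3 and 1.55-fold and 1.52-fold for Stmn4. Stmn3 was at 557 and 540 CPM in intermediate progenitor-like cells, 671 and 727 CPM in neuroblast-like cells and 2322 and 1980 CPM in excitatory neuron-like cells. Excitatory, GABAergic and Cajal-Retzius cell-like cells held the top 3 places in both libraries, and Cajal-Retzius cell-like cells (2269 and 2086 CPM) overlapped with both others. GABAergic neuron-like cells (2182 and 2173 CPM) did not overlap with excitatory neuron-like cells, standing below them in the control and above them in the KO library. Stmn4 was at 341 and 160 CPM, 704 and 533 CPM, and 1089 and 809 CPM in the same 3 classes. It stood highest of all classes in granule neuron-like cells, at 1354 CPM (control) and 817 CPM (KO), and in the KO library it overlapped with the excitatory and GABAergic classes. Stmn3 was at 1438 and 982 CPM in granule neuron-like cells. From neuroblast-like to granule neuron-like cells the 2 genes were closer, at 2.14-fold and 1.35-fold for Stmn3 and 1.92-fold and 1.53-fold for Stmn4. Dividing cells held 225 and 69 Stmn3 UMIs (159 and 116 CPM) against 29.96 and 16.6 CPM in endothelial-like cells. In CPM, stem cell-like cells stood above the endothelial-like level for Stmn3 (57.1 against 16.6 CPM in the KO library). So did Stmn4 (52.4 against 13.9 CPM in the control and 18.0 against 5.53 CPM in the KO library). These intervals did not overlap in either library. Endothelial-like cells were deeper, however, at medians of 20903 and 18189 UMIs against 3997 and 5548. In UMIs, 201 control stem cell-like cells held 84 of Stmn3 and 44 of Stmn4, against 125 and 58 in 197 endothelial-like cells. In the KO library 163 stem cell-like cells held 54 and 17, against 63 and 21 in 197. In dividing cells the Stmn4 CPM overlapped with the endothelial-like level in both libraries.

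Dcx stood highest in the intermediate progenitor and neuroblast stages. Its level was 44.1 CPM (control) and 28.6 CPM (KO) in stem cell-like cells and 125 and 94.3 CPM in dividing cells, against 7.43 and 4.74 CPM in endothelial-like cells. It stood at 523 and 543 CPM in intermediate progenitor-like cells and at 570 and 587 CPM in neuroblast-like cells, the top 2 classes in each library, with overlapping intervals. Excitatory neuron-like cells followed at 470 and 517 CPM, with intervals that overlapped those of intermediate progenitor-like cells in both libraries. In the KO library granule neuron-like (495 CPM) and GABAergic neuron-like cells (461 CPM) came next, each overlapping with the class before it. The order of these classes is therefore not resolved there. Cajal-Retzius cells, early-born neurons marked by Reln and Trp73, were the exception among neurons: Dcx was at 11.1 CPM (13 UMIs in 130 cells) and 11.3 CPM (4 UMIs in 32 cells). The same cells had 3733 and 3158 CPM of Stmn2 and 2685 and 2631 CPM of Tubb3, levels of the order seen in other neurons. Oligodendrocyte lineage-like cells held 83 and 18 Dcx UMIs (120 and 102 CPM), above the endothelial-like level in both libraries.

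Tubb3 made the largest step of the 7 in both libraries between stem cell-like and intermediate progenitor-like cells. It went from 118 to 2619 CPM in the control library, a 22.1-fold difference, and from 85.7 to 2240 CPM in the KO library, 26.0-fold. These folds rest on few Tubb3 UMIs in stem cell-like cells, 99 in 201 control and 81 in 163 KO cells. The 197 endothelial-like cells of each library held 144 and 86. Tubb2b stood high from the beginning, at 1446 and 1503 CPM in stem cell-like cells, 4007 and 3770 CPM in intermediate progenitor-like cells and 4818 and 4330 CPM in neuroblast-like cells. Its step between the first and the last of these classes was 3.33-fold (control) and 2.88-fold (KO). Outside neurons Tubb2b was also plentiful in oligodendrocyte lineage-like cells, at 1683 and 1315 CPM. In the 28 and 15 astrocyte-like cells Tubb2b was at 1639 and 2399 CPM while no Dcx UMI was found, which allows up to 60.0 and 110.7 CPM.

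**Figure D1:**
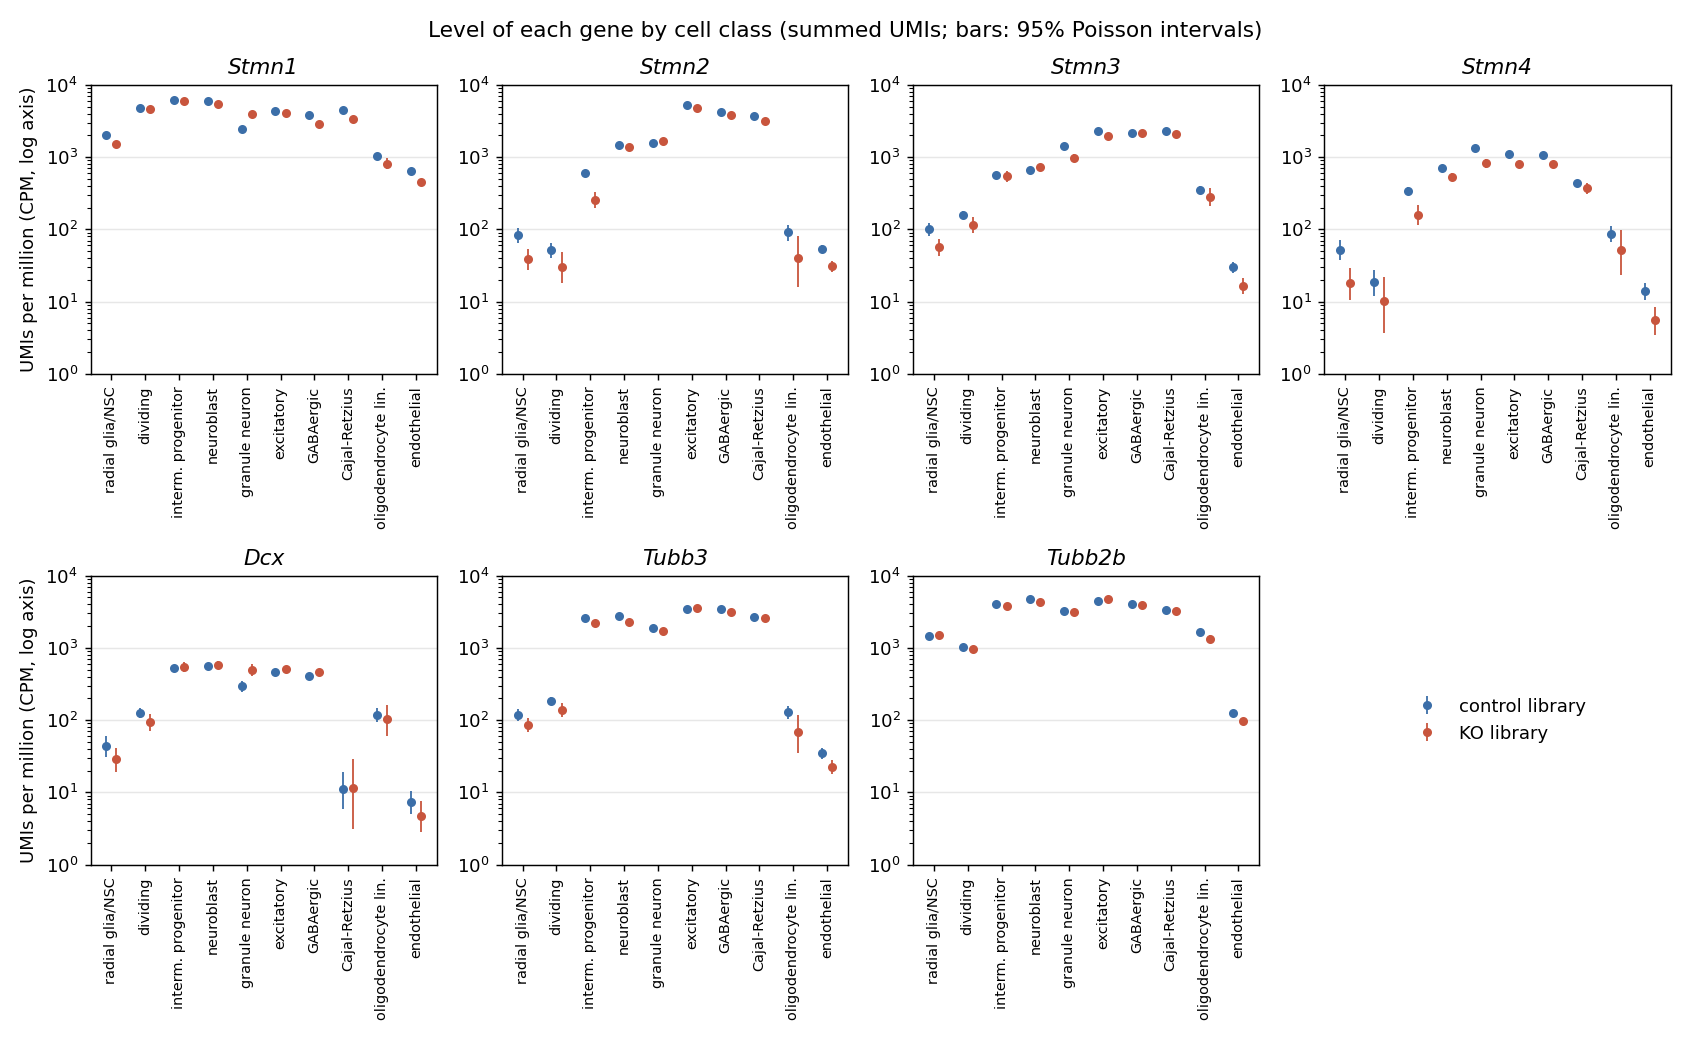
Level of each gene (CPM, log axis) in 10 cell classes, with the control library in blue and the KO library in red; points are sums over all cells of a class and bars are 95% Poisson intervals. Dcx stands at 11.1 and 11.3 CPM in Cajal-Retzius cell-like cells while Tubb3 stands at 2685 and 2631 CPM there, and the Stmn2 and Stmn4 points separate most between libraries in intermediate progenitor-like cells among the neuronal stages.

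Detection was also counted cell by cell. Among cells thinned to 2000 UMIs, Tubb3 was detected in 95.8% of control and 98.0% of KO intermediate progenitor-like cells, against 5.0% and 4.1% of endothelial-like cells. Dcx was detected in 61.5% and 66.7% of the intermediate progenitor-like cells, against 1.7% and 1.8% of endothelial-like cells. Before thinning these shares were 98.6% and 96.5% for Tubb3 and 85.8% and 87.7% for Dcx, at medians of 4738 and 5024 UMIs per cell, and in endothelial-like cells, at medians of 20903 and 18189 UMIs, they were 47.7% and 34.5% for Tubb3 and 10.7% and 7.6% for Dcx. Cells shallower than 2000 UMIs were left out of the thinned shares, 202 control and 158 KO cells in all. All 7 genes were detected together in 11.2% and 9.8% of intermediate progenitor-like and in 30.03% and 23.8% of neuroblast-like cells. At most 2 were detected in 54.3% and 72.8% of stem cell-like cells.

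In intermediate progenitor-like cells the KO library held less Stmn2 and less Stmn4, and the other 5 genes stood within 1.5-fold of the control. Stmn2 had 414 control and 69 KO UMIs (610 and 257 CPM), a log2 ratio of -1.24 with a ratio interval of 0.321 to 0.544. Stmn4 had 231 and 43 UMIs (341 and 160 CPM), a log2 ratio of -1.08 with an interval of 0.331 to 0.653. The other 5 ranged from -0.22 (Tubb3, 1777 and 602 UMIs) to 0.06 (Dcx, 355 and 146 UMIs). So 2 of 7 genes were called lower, where 16.1% of the 6370 genes measured in this class were. Many of those are genes with few UMIs: of the 265 genes with at least as many UMIs as Stmn2, 5 were lower (1.89%) and 2, Stmn2 included, had a ratio as low. Of the 559 genes with at least as many UMIs as Stmn4, 23 were lower (4.11%) and 4, Stmn4 included, had a ratio as low.

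The same difference was counted cell by cell. At 2000 UMIs a cell, Stmn2 was detected in 50.3% of 143 control cells (interval 41.9% to 58.8%) and in 29.4% of 51 KO cells (17.5% to 43.8%). The background share in endothelial-like cells was 11.6% and 5.9%, and before thinning the shares were 66.2% and 42.1% in intermediate progenitor-like and 53.3% and 36.5% in endothelial-like cells. At least 3 UMIs were found in 26 control cells (18.2%) and in 2 KO cells (3.92%). Stmn4 was detected in 39.2% and 25.5% of cells (31.1% to 47.7% and 14.3% to 39.6%), and for both genes the intervals of the libraries overlapped. The endothelial-like share of Stmn4 was 2.2% in the control library and 0 of 170 cells in the KO library, which allows up to 1.76%. Before thinning, Stmn4 was seen in 59.5% and 38.6% of intermediate progenitor-like and 23.4% and 9.1% of endothelial-like cells.

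Stmn2 was also counted among the cells of this class that held Dcx. Among Dcx-positive cells thinned to 2000 UMIs, 49 of 88 in the control library also had Stmn2 (55.7%), against 11 of 34 in the KO library (32.4%). Tubb3 accompanied Dcx in 97.7% and 100% of the same cells. Among the cells of this class without Dcx, Stmn2 was found in 41.8% (23 cells) and 23.5% (4 cells). The lower share in the KO library was therefore not particular to Dcx-positive cells. In neuroblast-like cells Stmn2 accompanied Dcx in 80.8% and 77.1% of Dcx-positive cells.

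**Figure D2:**
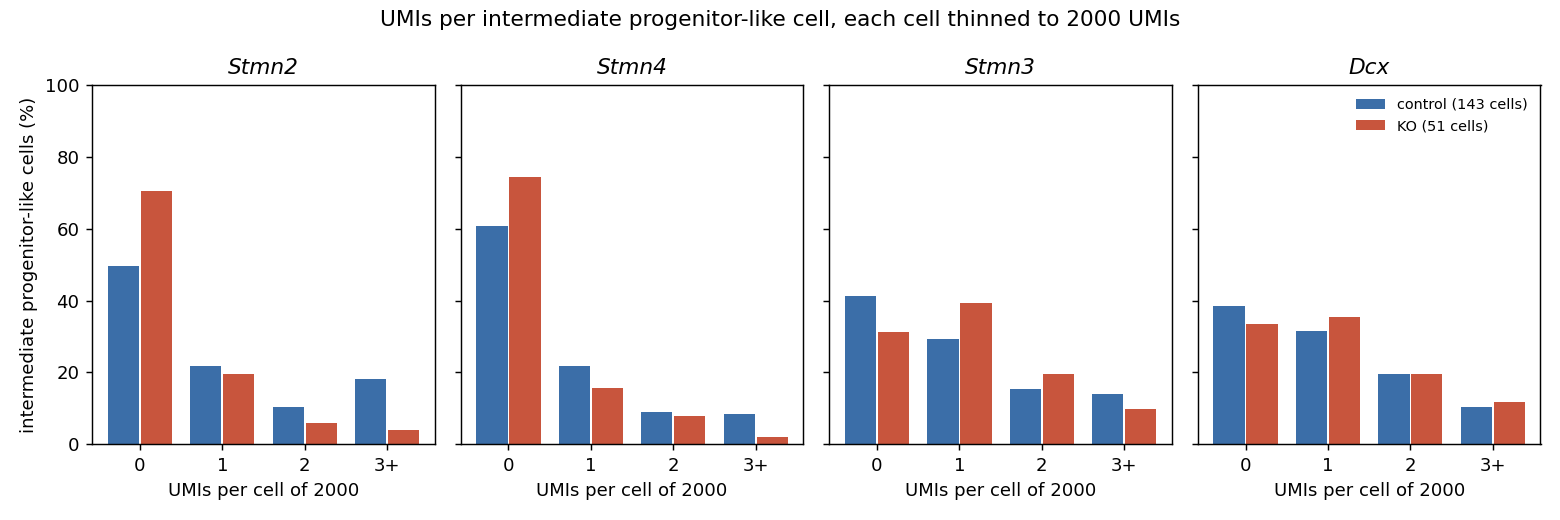
Share of intermediate progenitor-like cells (vertical axis, %) with 0, 1, 2 or at least 3 UMIs of Stmn2, Stmn4, Stmn3 and Dcx (horizontal axis) after each cell was thinned to 2000 UMIs, with 143 control cells in blue and 51 KO cells in red. For Stmn2, 49.7% of control and 70.6% of KO cells stand at 0, whereas for Dcx 38.5% and 33.3% do.

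Markers and RNA quality also differed between the libraries in these cells. The summed level of the 9 intermediate progenitor markers, all of them detected in both libraries, was 3479 CPM (control) and 2352 CPM (KO; log2 ratio -0.56, interval 0.618 to 0.738). The 8 neuroblast markers, again all detected, stood at 10118 and 9921 CPM (interval 0.937 to 1.03). Of 13 excitatory neuron markers 11 and 6 had a UMI, with sums of 637 and 461 CPM. Mitochondrial UMIs made up 3.09% and 3.79% and ribosomal protein UMIs 10.5% and 12.1%. The part of these shifts in the Stmn2 and Stmn4 ratios was not tested. With control and KO cells both limited to those with Xist and no Y-linked UMI, the log2 ratios were -1.39 for Stmn2 and -1.16 for Stmn4, and after subtracting the endothelial-like CPM of each library they were -1.30 and -1.08.

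In neuroblast-like and excitatory neuron-like cells the differences of Stmn2 and Stmn4 were smaller. In neuroblast-like cells 0 of 7 genes were called lower, where 11.3% of 8356 genes were. Stmn2 had 2090 and 855 UMIs, a log2 ratio of -0.08 with an interval of 0.875 to 1.03. Stmn4 had 995 and 325 UMIs, a log2 ratio of -0.40 with an interval of 0.666 to 0.859. For both genes the interval in intermediate progenitor-like cells did not overlap that in neuroblast-like cells, and the Stmn4 interval stayed below 1 in both classes. In excitatory neuron-like cells 0 of 7 were called lower (7.31% of 12510 genes), and the log2 ratios ran from -0.43 for Stmn4 to 0.14 for Dcx. Excitatory neuron markers were lower in these KO cells (3756 and 3035 CPM over 13 genes, all detected in both libraries) and neuroblast markers higher (1215 and 1436 CPM over 8 genes, 8 and 7 with a UMI). Cluster 3 held 224 of the 636 control but 74 of the 330 KO cells, and with the KO cells weighted to the control mix Stmn4 was at -0.47 and Dcx at 0.13. The part of the markers was not tested.

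Neuroblast-like cells came from 2 clusters. Cluster 2, led by Prox1 (the granule cell fate factor) and Gal, held 261 control and 86 KO cells, and cluster 13, led by Igfbpl1 and Sema3c, held 129 and 45. Cluster 13 had more Stmn2, at 2320 and 2111 CPM against 1062 and 959 CPM in cluster 2. Stmn4 was the 1 gene of 7 called lower in cluster 13 (642 and 401 CPM, log2 ratio -0.68, where 16% of genes were lower) and was at -0.25 in cluster 2 (735 and 616 CPM, 0 of 7 called, 11.5% of genes). Tubb3 was at -0.41 in cluster 2 (2318 and 1746 CPM) and -0.21 in cluster 13 (3543 and 3062 CPM).

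In stem cell-like cells 4 of 7 genes were called lower in the KO library, where 12.5% of 8715 genes were. They were Stmn2 (70 and 37 UMIs, log2 ratio -1.08), Stmn3 (84 and 54 UMIs, -0.80), Stmn4 (44 and 17 UMIs, -1.52) and Dcx (37 and 27 UMIs, -0.62, with an interval of 0.380 to 1.09 that holds 1). Endothelial-like cells, which should lack these transcripts, showed nearly the same set: 5 of 7 were called lower there (6.34% of 11051 genes). Their log2 ratios were -0.79 for Stmn2 (223 and 117 UMIs), -0.85 for Stmn3 (125 and 63), -1.31 for Stmn4 (58 and 21), -0.63 for Dcx (31 and 18) and -0.61 for Tubb3 (144 and 86). Per cell, an endothelial-like cell held 1.13 and 0.594 Stmn2 UMIs and a stem cell-like cell 0.348 and 0.227. With the endothelial-like CPM of each library subtracted, 4 of 7 genes were called lower in the stem cell-like class. Subtracting endothelial-like UMIs per cell instead gave no value. There 5 of 7 genes (Stmn1, Stmn2, Stmn3, Stmn4 and Tubb3) were at or below that level. Without any subtraction, leaving all doublets in gave 1 of 7. The part of free RNA in the ratios of this class was not tested further.

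**Figure D3:**
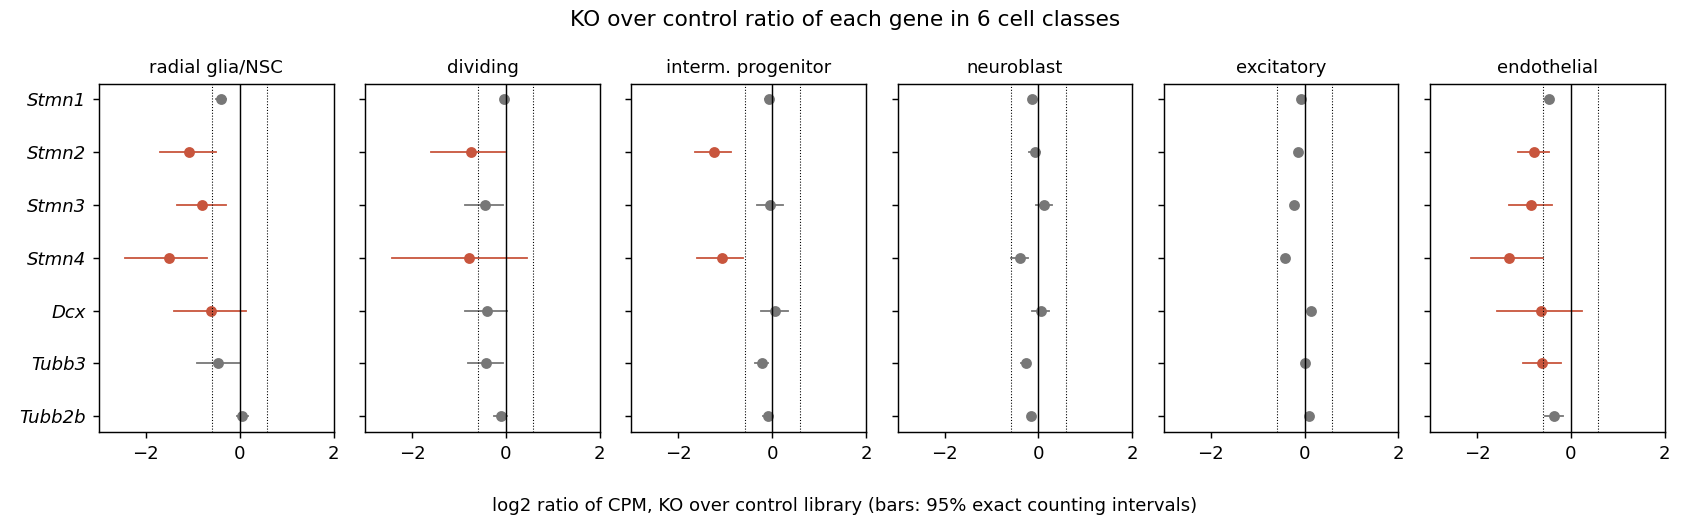
The log2 ratio of CPM, KO over control library, for the 7 genes in 6 cell classes; points are ratios over summed UMIs, bars are 95% exact counting intervals, dotted lines mark 1.5-fold and red marks genes called lower. Endothelial-like cells show 5 red genes and radial glia/neural stem cell-like cells 4, whereas intermediate progenitor-like cells show only Stmn2 and Stmn4, and neuroblast-like and excitatory neuron-like cells none.

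Stmn1 in the stem cell-like class differed in sign between the class and its parts. Over the whole class it had 1703 and 1455 UMIs, a log2 ratio of -0.40 with an interval of 0.707 to 0.814. The class joined cluster 11 (65 control and 118 KO cells) and cluster 12 (136 and 45), so a different cluster held most of it in each library. Within cluster 11 Stmn1 stood at 868 and 976 CPM (log2 ratio 0.17) and within cluster 12 at 2552 and 3134 CPM (0.30), higher in the KO library in both. Tubb2b gave the reverse picture, at 0.06 over the class but at -0.16 in cluster 11 (1840 and 1652 CPM) and -0.23 in cluster 12 (1267 and 1082 CPM). Dcx in cluster 12 was at 55.3 and 93.2 CPM (log2 ratio 0.76, interval 0.942 to 2.97). With the KO cells weighted to the control mix of both clusters, the log2 ratios were 0.28 for Stmn1, -0.20 for Tubb2b and 0.58 for Dcx, each with the opposite sign to the value over the class. Markers of the class were higher in the KO library as well, at 15728 and 19661 CPM over 13 genes, and neuroblast markers lower, at 1153 and 693 CPM over 8 genes, 7 of them with a UMI in each library. The part of these in the ratios was not tested.

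Dividing cells had 2 of 7 genes called lower (12.7% of 8458 genes), both with few UMIs: Stmn2 (73 and 18) and Stmn4 (26 and 6, an interval of 0.185 to 1.36). Stmn1, with 6713 and 2730 UMIs, stood at a log2 ratio of -0.05 there. In the same cells intermediate progenitor markers were at 1644 and 945 CPM (log2 ratio -0.80, 9 of 9 detected in both) and excitatory neuron markers at 170 and 71 CPM (-1.25, 12 and 8 of 13 with a UMI). Their part in these calls was not tested.

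Stmn4 stood below its control level throughout the neurons, and in other classes as well. It was lower in the KO library in all 6 neuronal lineage classes, from intermediate progenitor-like to Cajal-Retzius cell-like, with log2 ratios from -1.08 to -0.25, and the interval stayed below 1 in 5 of the 6. Over all classes with enough UMIs it was below 0 in 11 of 11, with a lowest value of -1.73. Stem cell-like cells were at -1.52 (44 and 17 UMIs). Endothelial-like cells, outside the Cre lineage, held 58 and 21 UMIs (13.9 and 5.53 CPM). The lower level was therefore not particular to neurons. Granule neuron-like cells had 596 and 193 UMIs (1354 and 817 CPM, log2 ratio -0.73). Their own granule neuron markers stood at 2058 CPM in the control and 415 CPM in the KO library (8 and 6 of 8 with a UMI, log2 ratio -2.30), neuroblast markers at 1018 and 3479 CPM (7 of 8 in each) and excitatory neuron markers at 856 and 389 CPM (11 and 6 of 13). The part of these in the ratios of this class was not tested. GABAergic neuron-like cells had 1793 and 1782 UMIs (1067 and 802 CPM, -0.41). By cluster it was below 0 in 17 of 18, and the 1 exception was unnamed cluster 4, with radial glia and astrocyte markers (18 and 9 UMIs, 1.09, interval 0.820 to 4.85). In excitatory neuron-like cells, the class with the most UMIs in total, Stmn4 had 12967 and 6097 UMIs and an interval of 0.721 to 0.766. Of the 143 genes with at least as many UMIs there, 2 had a ratio as low, Stmn4 included.

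Dcx, in contrast, was at or above its control level in the neuronal classes. It was higher in all 5 in which it had enough UMIs, with log2 ratios from 0.05 to 0.74 and intervals above 1 in 3. In GABAergic neuron-like cells it stood at 402 and 461 CPM (log2 ratio 0.20) and in excitatory neuron-like cells at 470 and 517 CPM (0.14). Granule neuron-like cells, 54 control and 32 KO, showed the widest gap, at 298 and 495 CPM (131 and 117 UMIs, log2 ratio 0.74, interval 1.29 to 2.15). In the same cells Stmn1 was higher as well (2446 and 3936 CPM, 0.69), while Stmn3 was at -0.55 and Stmn4 at -0.73. There 2 of 7 genes were called higher and 1 lower, where 13.9% and 19% of 5284 genes were, and the marker levels given above for this class differed in the same cells. Dcx is X-linked and the libraries differed in sex. Within the control library, excitatory neuron-like cells with Xist had 454 CPM of Dcx (interval 435 to 474) and those with a Y-linked UMI 434 CPM (414 to 455), intervals that overlapped. In control granule neuron-like cells the same split gave 368 CPM of Dcx (268 to 492, 16 cells) and 276 CPM (211 to 355, 25 cells), which overlapped, and 2728 CPM of Stmn1 (2444 to 3037) and 2011 CPM (1828 to 2207), which did not. The part of sex in the Stmn1 and Dcx ratios of this class was not tested.

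**Figure D4:**
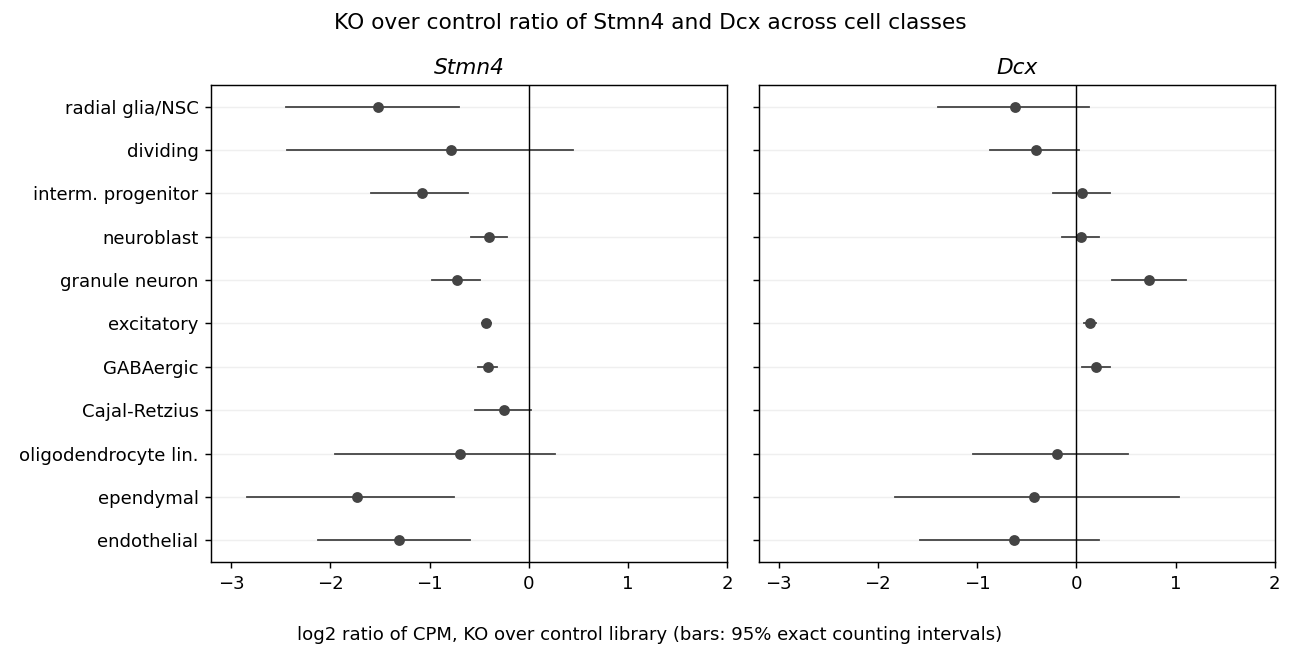
The log2 ratio of CPM, KO over control library, of Stmn4 and Dcx in up to 11 cell classes; points are ratios over summed UMIs, bars are 95% exact counting intervals, and Dcx in Cajal-Retzius cell-like cells is left out for having fewer than 20 UMIs. All 11 Stmn4 points lie left of 0, and the Dcx points of the neuronal classes lie between 0.05 and 0.74.

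Microglia-like cells seemed to carry neuronal transcripts in the KO library, and this came down to 1 cell. Dcx had 20 UMIs in 25 KO cells and 0 in 42 control cells, and Stmn2 had 93 and 11. A single KO cell held 19 of the 20 Dcx UMIs and 87 of the 93 Stmn2 UMIs. Without it, Stmn2 stood at 43.4 CPM. The control library, with its own top cell left out as well, stood at 55.1 CPM, and both values rest on few UMIs.

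Related genes were followed in the same classes. Described beside the 7 genes were 14 other tubulins, 27 microtubule-binding proteins, 24 motors and adaptors, 20 severing and tubulin-folding genes and 18 growth cone and immature neuron genes. In intermediate progenitor-like cells 2 of 7 measured other tubulins were lower and 0 higher, with a median log2 ratio of -0.41 against -0.05 over all genes. The 2 were Tubb2a (275 and 67 UMIs, -0.69) and Tubb4a (63 and 14 UMIs, -0.79). Tuba1a, the main alpha-tubulin of new neurons, was within the limit at 7689 and 2284 UMIs (-0.42). Tubb2a is nearly identical to Tubb2b in its coding part, so reads from that part could be shared, yet Tubb2b stood at -0.09.

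Among microtubule-binding proteins 1 of 22 was lower and 1 higher in intermediate progenitor-like cells. Mapre3, which binds growing microtubule ends, was at -0.95 (36 and 7 UMIs), and Dpysl5, a collapsin response mediator protein, was at 0.59 (84 and 50 UMIs). Map1b, a stabiliser of axonal microtubules, stood at -0.20 (891 and 306 UMIs). Of 22 motors and adaptors 0 were lower and 3 higher, namely the kinesin gene Kif21b (0.73), the dynactin gene Dctn1 (0.61) and the dynein heavy chain gene Dync1h1 (1.20), with 24 to 64 UMIs in each library. Of 13 severing and folding genes 1 was lower (Ttll1, -0.87) and 2 were higher (the severing enzyme gene Spast, 1.43, and the tubulin deacetylase gene Hdac6, 1.34, each with at most 15 UMIs a library). Of 17 growth cone and immature neuron genes 2 were lower, the adhesion molecules Cntn2 (-0.84) and L1cam (-0.82), and Tmsb10 was at 0.30 with 2408 and 1178 UMIs. The shares over all genes in this class were 16.1% lower and 10.1% higher.

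In neuroblast-like cells 0 of 8 other tubulins and 0 of 25 microtubule-binding proteins were lower, and 1 binding protein, the doublecortin relative Dclk2, was higher (0.66, 56 and 38 UMIs), where 7.95% of all genes were. Of 23 motors and adaptors 2 were higher, Kif3b (0.69) and Dync1i1 (0.98), and of 15 severing and folding genes 2 were lower, Tbcc (-1.02) and Katna1 (-0.86). Of 18 growth cone genes 1 was lower, the neuronal RNA-binding gene Elavl4 (58 and 9 UMIs, -1.41). In stem cell-like cells 5 of 16 growth cone genes were called lower, against 12.5% of all genes, among them Tagln3 (-0.84), Mllt11 (-0.85), Gap43 (-0.93) and Elavl4 (-1.68). In endothelial-like cells 5 of 14 genes of that list were lower, against 6.34% of all genes. Of 8 other tubulins 2 were lower in stem cell-like cells, Tubb5 (-0.67, 1119 and 794 UMIs) and Tubg1 (-0.64, 50 and 36 UMIs). In excitatory neuron-like cells 1 of 12 other tubulins, 1 of 27 binding proteins, 0 of 24 motors, 0 of 18 severing and folding genes and 1 of 18 growth cone genes were lower, where 7.31% of all genes were.

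For each of the 7 genes the 5 genes with the most similar levels were listed. Likeness was Pearson's r of log2(CPM + 1) over 13 classes in 2 libraries, 26 points that share library and depth, among 9711 genes, and is given without a test. Stmn3 was nearest to Snap25, a synaptic vesicle fusion gene (r = 0.98), and then to Syngr3, Nsg1, Olfm1 and Sult4a1. Stmn2 was nearest to Ywhag (0.96), followed by Golga7b, Syt1, Olfm1 and Smim18, and Stmn4 to Rab3a (0.97), followed by Actl6b, Mllt11, Olfm1 and Myt1l. Tubb3 was nearest to Actl6b, a subunit of the neuronal chromatin remodelling complex (0.98), then to Mllt11, Parp6, Cdk5r1 and Olfm1. Stmn1 was nearest to Tagln3 (0.96), and its next genes were Psmd14, Klhdc2, Med22 and Cirbp. Dcx was nearest to Nol4 (0.94), then to Zfp811, Rbfox3, Fbxo21 and Rab3c, and Tubb2b to Trim32 (0.98), then to Atl1, Dpysl3, Ttc3 and Ttc9b. Among the 7 themselves r ran from 0.61 for Stmn2 with Dcx to 0.95 for Stmn3 with Stmn4.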

How the data were processed

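The deposited values are raw UMI counts (integers, 1 for each gene and cell barcode) from a 10x Genomics 3′ assay, per the labels' protocols and the file headers. Cell Ranger 3.0.2, Seurat 3 and the build mm10 are named in the submitters' processing notes, without a stated role for each. The labels do not say how the deposited barcodes were selected.

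A barcode was kept when it had 500 genes or more, 1000 UMIs or more and a mitochondrial share of no more than 10% (3029 of 3555 control and 1967 of 2292 KO barcodes). Scrublet marked 7 and 12 barcodes, which is too few for the control library, and doublets were instead taken as the top scores, 0.8% for every 1000 barcodes (72 and 36). Clustering used scanpy 1.11.5 and leidenalg 0.10.2 (2000 variable genes, 30 components, 15 neighbours, resolution 1), leaving out the 7 genes, the related lists and sex-linked genes. A cluster took the name of a type with at least 3 detected markers (in at least 10% of its cells and 1.5-fold over other clusters) that held 2 or more of the top 10 genes and more than any other type, or that had at least 1.5 times as many detected markers as any other type. Clusters under 0.33 of the depth of their libraries with no such marker stayed unnamed. Names rebuilt this way may differ from the study's.

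Ratios used 0.5 UMI added to each sum. Exact Poisson, conditional binomial and Clopper-Pearson intervals were taken at 95%. Only the conditional binomial interval was tested on simulated data, with Poisson counts that hold no spread between cells or animals. Ratios were computed for classes with at least 20 cells in each library. Normalization factors for the alternatives came from edgeR 4.0.16 (TMM) and DESeq2 1.42.0 (median of ratios) in R 4.3.3, and no count model was fitted. The 7 genes, the lists and the comparisons were chosen with earlier results of these data known. The genes named are the 7, the 5 nearest genes of each (at least 500 UMIs), and for each list up to 4 genes past 1.5-fold with the most UMIs and the top 2 of the rest. Of these, those with the most bearing on each class were printed, Dcx in Cajal-Retzius cell-like cells and the genes of microglia-like cells having been singled out after their values were seen.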

Additional observations from a re-analysis of the deposited data

How the results depend on the processing

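The 18 alternatives planned were joined by 3 that were added after seeing the data (both subtractions of endothelial-like background, and the weighting to the control cluster mix). In intermediate progenitor-like cells Stmn2 and Stmn4 were past 1.5-fold lower in 20 of 20 alternatives that gave a value, with log2 ratios from -1.64 to -1.15 and from -1.41 to -0.89. A resolution of 0.5 gave no such class. Some of the 20 could not change these ratios. Other UMI minimums and the 2-fold limit leave a ratio as it is. This class is a single cluster, so the control cluster mix leaves it nearly unchanged. Scaling factors or a larger added UMI count could move it only slightly. Subtracting endothelial-like UMIs per cell gave no value in stem cell-like cells, where 5 of 7 genes were at or below that level. All 7 genes were higher in neuroblast-like than in stem cell-like cells under every alternative run. The count of genes lower in stem cell-like cells, 4 as reported, was 1 with no doublets removed, 2 with double the doublet share removed, 2 at resolution 0.5, 2 at a minimum of 100 UMIs, 2 at a 2-fold limit and 2 with the control cluster mix. For the minimum and the 2-fold limit the setting itself shortens the list; for the others the cause was not tested. Dcx in that class turned from -0.62 to 0.23 with double the doublet share, 0.24 at resolution 0.5, 0.0084 in cells with few cell cycle UMIs and 0.58 with the control cluster mix. In excitatory neuron-like cells 1 gene, Stmn4 (-0.64), was lower by the mean of per-cell fractions, against 0. The log2 scaling factors by TMM or median of ratios were between -0.076 and -0.023 in the 4 stage classes. No paired analysis was possible because each genotype has 1 library, and no replicate could be left out. Depth limits the ratios of Stmn2 and Stmn4 in the stem cell-like and dividing classes, where they had 6 to 73 UMIs per library.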
